A study of Mus musculus with 12 samples.

Results

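Antigen presentation was followed through 10 genes in the veins of mice, in 12 RNA-seq libraries from 6 sham and 6 AVF-CKD samples taken 7 days after surgery. They are the class II genes H2-Aa, H2-Ab1 and H2-Eb1, the loading genes H2-DMa, H2-DMb1 and Cd74, the transactivator Ciita, and the dendritic cell genes Itgax, Flt3 and Cd209a. All 10 were chosen by gene name and found in the deposited table of 43346 genes, and all 10 passed the filter on low counts that left 18965 genes for testing. The sham samples were jugular vein and the AVF-CKD samples the venous limb of the AVF. These letters are not explained in the labels and are taken to mean arteriovenous fistula and chronic kidney disease, and no strain, age or sex is given. On this reading surgery, vessel and disease model cannot be told apart. Whether every library is from its own mouse is not stated, and p-values therefore measure the spread between these samples only, which may be technical.

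MHC class II molecules are pairs of an alpha and a beta chain that carry peptides from engulfed material to the surface of dendritic cells, macrophages and B cells, where CD4 T cells read them. The invariant chain, made from Cd74, fills the groove during transport, and the DM molecule exchanges its last fragment for a peptide. Ciita is the coactivator without which these genes are barely transcribed, and interferon gamma raises it in many cell types. In vessels, dendritic cells and macrophages of the adventitia are the usual carriers of class II.

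The promoters of class II genes are known for a shared block in which an X box, bound by the RFX complex, stands upstream of a Y box, bound by NF-Y. Sequences 250 bases before to 50 after the RefSeq start (GRCm38.p6) were available for 7 members. The 250 bases before the start were searched on both strands for CNNNNAAC followed after 20 to 30 bases by TGATTGG, letters chosen after the class II promoters had been read. The 2 motifs cannot overlap under this rule. H2-Aa, H2-Eb1 and H2-DMb1 held both, as did 4 of 4 other class II genes of the same region (H2-Oa, H2-DMb2, H2-Ob and H2-Eb2). Of all 32851 promoters in the table, 73 (0.222%) held the pair, 7.23% held TGATTGG and 75.6% held CNNNNAAC. Flt3, Itgax, Cd209a and both entries of H2-DMa held no match, which says only that these letters are not in that window. The H2-DMa entries (chr17:34122582-34122881 and chr17:34125268-34125567) lie upstream of the gene start given below, 34135182. The sequence at that start was not searched. The 5 stretches that lie wholly outside exons are shown because they are the sequence that these genes share, with CNNNNAAC and TGATTGG in capitals. They are chr17:34287852-34287922 (minus strand) for H2-Aa, chr17:34305758-34305827 for H2-Eb1, chr17:34325525-34325594 for H2-Eb2, chr17:34238800-34238867 for H2-Ob and chr17:34145108-34145178 for H2-DMb2, the last 4 on the plus strand.
H2-Aa: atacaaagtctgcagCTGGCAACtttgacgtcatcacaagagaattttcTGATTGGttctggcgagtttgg
H2-Eb1: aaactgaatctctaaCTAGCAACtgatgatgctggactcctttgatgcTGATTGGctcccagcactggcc
H2-Eb2: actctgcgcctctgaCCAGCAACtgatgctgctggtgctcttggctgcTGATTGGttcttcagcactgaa
H2-Ob: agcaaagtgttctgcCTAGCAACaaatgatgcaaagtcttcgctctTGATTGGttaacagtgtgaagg
H2-DMb2: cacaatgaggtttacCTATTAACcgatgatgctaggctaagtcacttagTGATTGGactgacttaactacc
The motifs were 26 bases apart in H2-Aa and H2-DMb2, 25 in H2-Eb1 and H2-Eb2, and 23 in H2-Ob. A match is a description and not evidence of binding.

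For none of the 10 genes was a difference between fistula and sham veins detected. In the edgeR quasi-likelihood test 0 of 10 passed an adjusted p of 0.05, as did 0 of 18965 genes (0%). At an unadjusted p below 0.05 the members again gave 0 of 10, where 9.34% of all genes passed. The groups overlapped for 10 of 10 members, while 0.638% of all genes had groups that did not overlap. DESeq2 passed 0 of 10 members and 0.62% of the genes to which it gave an adjusted p (67 higher and 39 lower). The median log2 fold change of AVF-CKD over sham was -0.09 over the members and -0.0025 over all genes tested, with 7 members negative and 3 positive. In this fit of all 12 libraries the 95% intervals of all 10 members stopped short of a 2-fold change, up or down. Intervals were not set against that bound with libraries left out. In bulk tissue fewer cells of a type and less RNA per cell cannot be told apart.

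**Figure D1:**
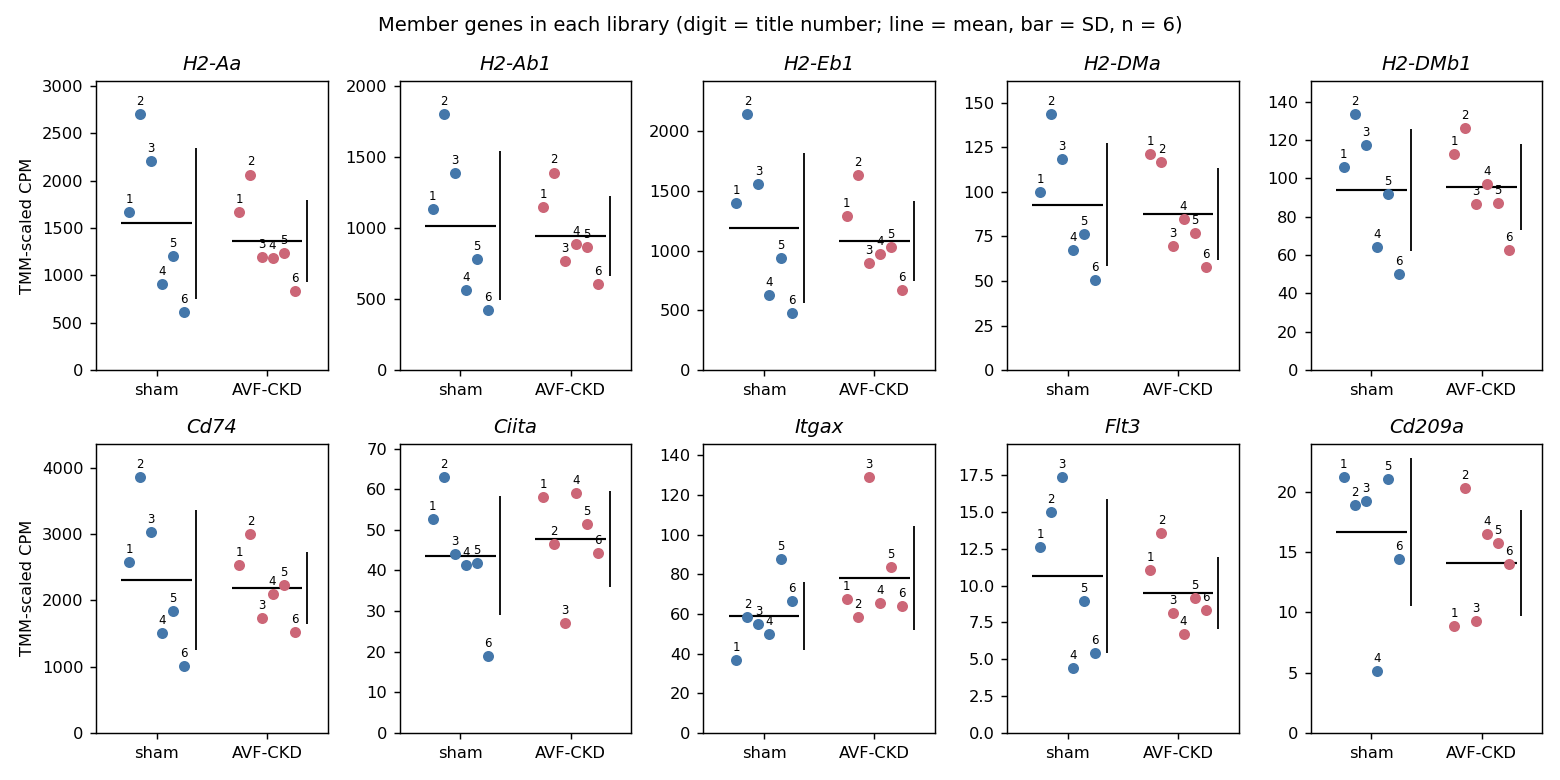
TMM-scaled CPM (counts per 1000000 counts) of the 10 members in each library, with the library's title number beside the point, the group mean as a line and the SD as a bar (n = 6 per group). The groups overlap in every panel, and sham libraries 1 to 3 lie above 4 to 6 for the class II genes, Ciita and Flt3.

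The 3 chains of the class II molecules were abundant and varied several-fold between libraries of the same group. H2-Aa, the alpha chain of the I-A molecule (chromosome 17, 34282744 to 34287827, minus strand, GRCm38), ran from 610 through a median of 1435 to 2701 CPM in sham and from 834 through 1216 to 2065 CPM in AVF-CKD. Its highest and lowest libraries were both sham, sham 2 and sham 6. The log2 fold change was -0.18 ± 0.33 (SE, n = 6 per group; edgeR adjusted p = 0.894). H2-Ab1, the beta chain of I-A (chromosome 17, 34263209 to 34269418), ran from 427 through 958 to 1803 CPM in sham and from 608 through 877 to 1393 CPM in AVF-CKD. All 6 AVF-CKD libraries lay inside the sham range, and the log2 fold change was -0.10 ± 0.32 (SE; edgeR adjusted p = 0.945). H2-Eb1, the beta chain of I-E (chromosome 17, 34305877 to 34316199), ran from 479 through 1169 to 2140 CPM in sham and from 668 through 1000 to 1634 CPM in AVF-CKD. It too had its extremes in sham 6 and sham 2, and the log2 fold change was -0.14 ± 0.33 (SE; edgeR adjusted p = 0.928). The I-E alpha chain appears in the table as the pseudogene model H2-Ea-ps, which had 0 counts in 11 libraries and 0.0423 CPM in AVF-CKD 3.

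Peptide loading followed the same libraries. Cd74, the invariant chain, ran from 1004 through 2214 to 3865 CPM in sham and from 1519 through 2167 to 3006 CPM in AVF-CKD. Sham 6 was again lowest and sham 2 highest, and the log2 fold change was -0.08 ± 0.29 (SE; edgeR adjusted p = 0.955). H2-DMa, the alpha chain of DM (chromosome 17, 34135182 to 34139101), ran from 50.6 through 88.1 to 143 CPM in sham and from 57.6 through 80.8 to 121 CPM in AVF-CKD. Its log2 fold change was -0.08 ± 0.25 (SE; edgeR adjusted p = 0.946), and 10.4% of its exonic bases lie in the neighbouring model Brd2. H2-DMb1, a beta chain of DM (chromosome 17, 34153072 to 34160230), ran from 50.3 through 98.9 to 133 CPM in sham and from 62.8 through 92.0 to 126 CPM in AVF-CKD. The AVF-CKD values lay inside the sham range, and the log2 fold change was 0.03 ± 0.23 (SE; edgeR adjusted p = 0.985). H2-DMb1 shares 27.2% of its 50-base windows with its paralog H2-DMb2, so the split of reads between them is uncertain.

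Ciita (chromosome 16, 10488178 to 10527564) ran from 19.0 through 42.9 to 63.0 CPM in sham and from 27.1 through 48.9 to 59.0 CPM in AVF-CKD. Sham 6 and AVF-CKD 3 were lowest in their groups, and the other 10 libraries lay between 41.3 and 63.0 CPM. The log2 fold change was 0.13 ± 0.25 (SE; edgeR adjusted p = 0.899), and 3.45% of its exonic bases lie in the model Dexi.

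The 3 dendritic cell genes had their highest values in different libraries. Itgax, which encodes the integrin CD11c (chromosome 7, 128129547 to 128150656), ran from 36.6 through 56.5 to 87.9 CPM in sham and from 58.7 through 66.4 to 129 CPM in AVF-CKD. AVF-CKD 3 was highest and sham 1 lowest, and the other 10 libraries lay between 49.7 and 87.9 CPM. It had the largest fold change of the members, 0.41 ± 0.22 on the log2 scale (SE; 95% interval -0.08 to 0.89; edgeR adjusted p = 0.594). Without AVF-CKD 3 the value was 0.20. Flt3, the receptor of the growth factor on which conventional dendritic cells depend (chromosome 5, 147330741 to 147400489, minus strand), ran from 4.40 through 10.8 to 17.4 CPM in sham and from 6.69 through 8.77 to 13.5 CPM in AVF-CKD. Sham 1 to 3 held 3 of its 4 highest values, and the log2 fold change was -0.17 ± 0.31 (SE; edgeR adjusted p = 0.899). Cd209a, a lectin of monocyte-derived and type 2 dendritic cells (chromosome 8, 3743395 to 3748984, minus strand), ran from 5.12 through 19.1 to 21.2 CPM in sham and from 8.90 through 14.9 to 20.3 CPM in AVF-CKD. Sham 4 was lowest, with AVF-CKD 1 and 3 next, and the log2 fold change was -0.24 ± 0.30 (SE; edgeR adjusted p = 0.841). Itgax shares 9.61% of its 50-base windows with Itgad, a neighbouring integrin gene.

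Per length, the members fell into tiers. In sham, CPM per kilobase of gene length in the table averaged 1636 ± 750 (SD, n = 6) for Cd74, 1005 ± 529 for H2-Eb1, 827 ± 426 for H2-Aa and 621 ± 320 for H2-Ab1. The DM chains came next, H2-DMb1 at 63.2 ± 21.4 and H2-DMa at 56.5 ± 21.0 CPM per kilobase. Itgax (14.6 ± 4.28), Cd209a (11.2 ± 4.16) and Ciita (8.30 ± 2.79) followed, and Flt3 was lowest at 1.37 ± 0.674 CPM per kilobase. Within the first 3 tiers the SD ranges of neighbouring genes overlapped, and at the steps from H2-Ab1 to H2-DMb1, from H2-DMa to Itgax and from Ciita to Flt3 they did not. In AVF-CKD the order was the same, with 1552 ± 383 (SD, n = 6) for Cd74 and 1.22 ± 0.315 CPM per kilobase for Flt3, though Itgax at 19.3 ± 6.52 lay further above Cd209a at 9.52 ± 2.97.

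**Figure D2:**
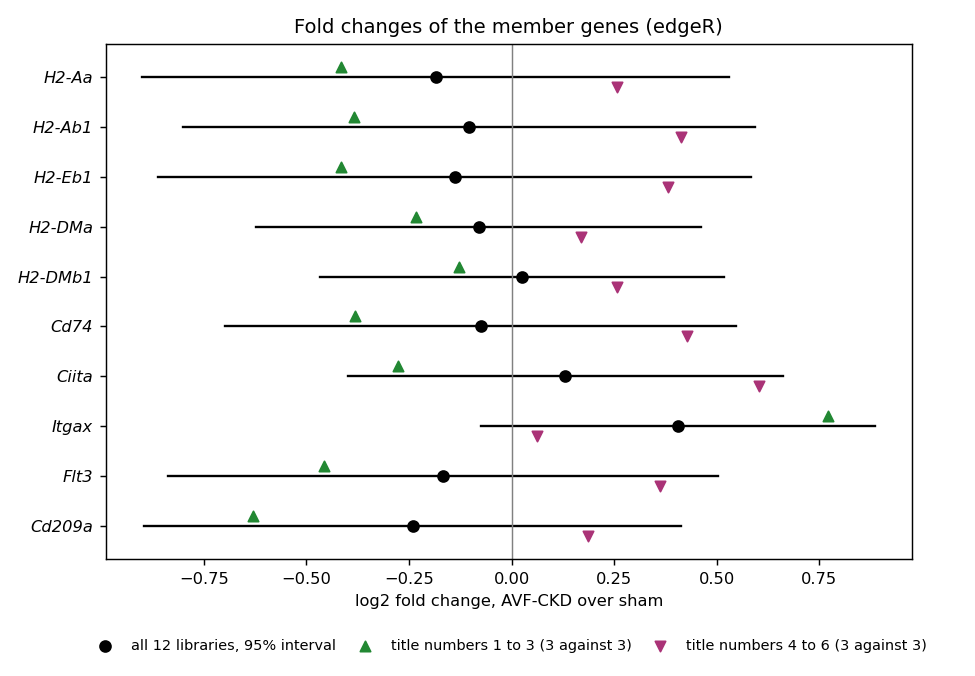
log2 fold change of AVF-CKD over sham for each member, with the 95% interval from edgeR over all 12 libraries (circles), and the values in title numbers 1 to 3 and 4 to 6 alone (triangles). Every interval spans 0, and all members but Itgax are negative in numbers 1 to 3 and all 10 positive in 4 to 6.

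The fold changes were also taken within the low and the high title numbers, sets chosen after the data had been seen. In sham, libraries 1 to 3 all exceeded libraries 4 to 6 for the 6 class II and loading genes, for Ciita and for Flt3, as for H2-Aa with 1667 to 2701 CPM against 610 to 1204 CPM. These sham values enter the fold change of each set, and the 6 genes are closely correlated, so the signs below are a description and not separate observations. In title numbers 1 to 3 the median log2 fold change of the members was -0.38, with 9 of 10 negative and Itgax at 0.77, and in numbers 4 to 6 it was 0.31, with 10 of 10 positive. Of 18764 genes fitted in both sets, 50.1% were negative in the first, 49.9% positive in the second and 22.8% both. H2-Ab1 moved from -0.39 to 0.41 on the log2 scale and Cd74 from -0.38 to 0.43. A test of the difference itself, the interaction of the group with these sets in edgeR, passed 0 of 10 members and 0 of 18965 genes (0%). Flt3 came closest, with a difference in log2 fold change of 0.82 ± 0.37 (SE; edgeR unadjusted p = 0.0503, adjusted p = 0.540), and Ciita had the largest difference at 0.88 ± 0.45 (SE; edgeR adjusted p = 0.565). At an unadjusted p below 0.05 the interaction passed 0 of 10 members and 9.22% of all genes. The labels do not say what the numbers mark. Dbp, a clock output gene that peaks daily, was between 6.15 and 21.4 CPM in sham 4, 5 and 6 and 7.65 CPM in AVF-CKD 6, while the other 8 libraries held 77.7 to 107 CPM. Its part in the members' values was not tested.

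**Figure D3:**
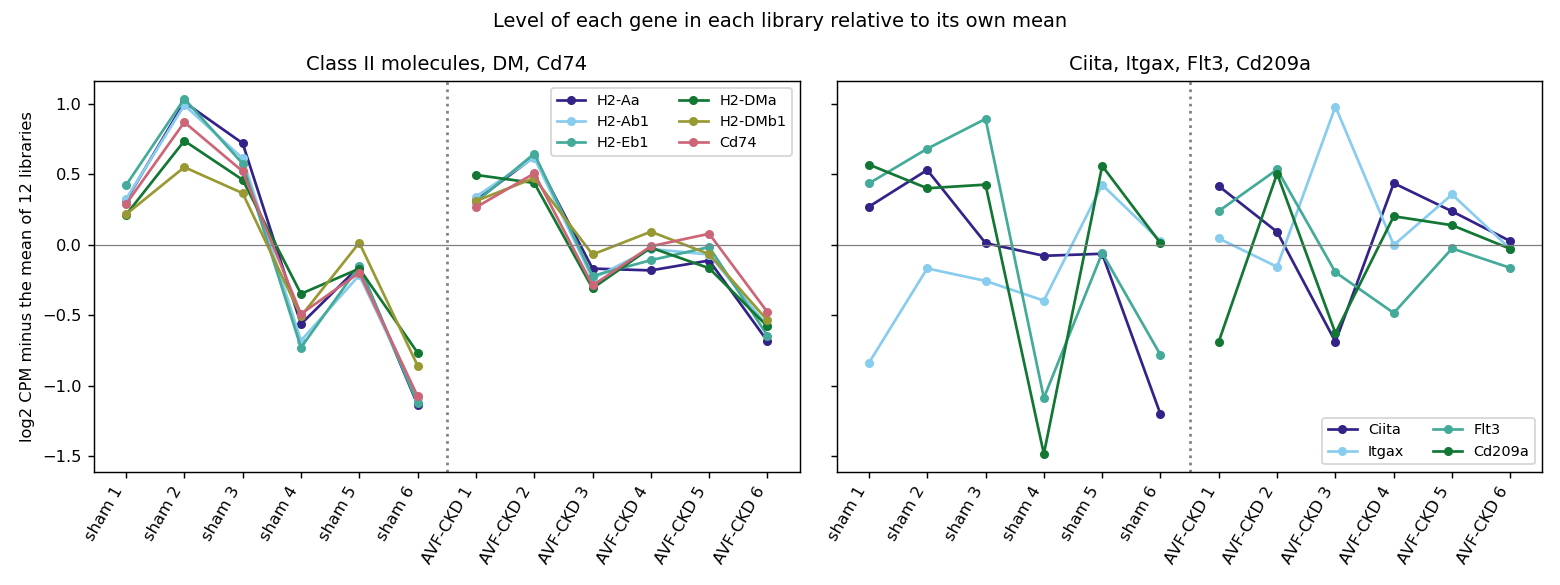
log2 CPM of each member in each library minus its mean over the 12 libraries, for the class II and loading genes (left) and the other 4 members (right), with a dotted line between the groups. The lines join points of 1 gene and imply no order. The 6 curves on the left nearly coincide, while those on the right part, with Itgax highest in AVF-CKD 3 where Ciita is low.

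From library to library the 6 class II and loading genes went up and down almost as a unit. Their 15 pairs had Pearson r of 0.952 to 0.996 over the 12 libraries (log2 CPM, median 0.973), and each had a permutation p of 1e-05, the smallest the permutations can give, which is 3e-05 when adjusted over the 45 pairs of members. Spearman's rho for these pairs was 0.916 to 0.993. The median r was 0.992 in the sham libraries alone and 0.964 in the AVF-CKD libraries alone, and stayed between 0.963 and 0.982 when any 1 library was left out. For H2-Ab1 and H2-Eb1, the closest pair, r was 0.996 (rho 0.986) and 0.992 without the 2 libraries farthest from the median of H2-Ab1. Their summed level was 2621 CPM in sham 6 and 10786 CPM in sham 2, with 3749 to 8341 CPM in AVF-CKD. Against this range 3 ratios moved by at most 1.24-fold. H2-Eb1 to H2-Ab1 stayed between 1.09 and 1.23 in all 12 libraries, H2-Aa to H2-Ab1 between 1.33 and 1.60, and Cd74 to H2-Ab1 between 2.14 and 2.66. The ratios of the DM chains, H2-DMa to H2-Ab1 (0.0796 to 0.119) and H2-DMb1 to H2-Ab1 (0.0740 to 0.118), moved more, by up to 1.59-fold, and both were lowest in sham 2, the library richest in class II.

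**Figure D4:**
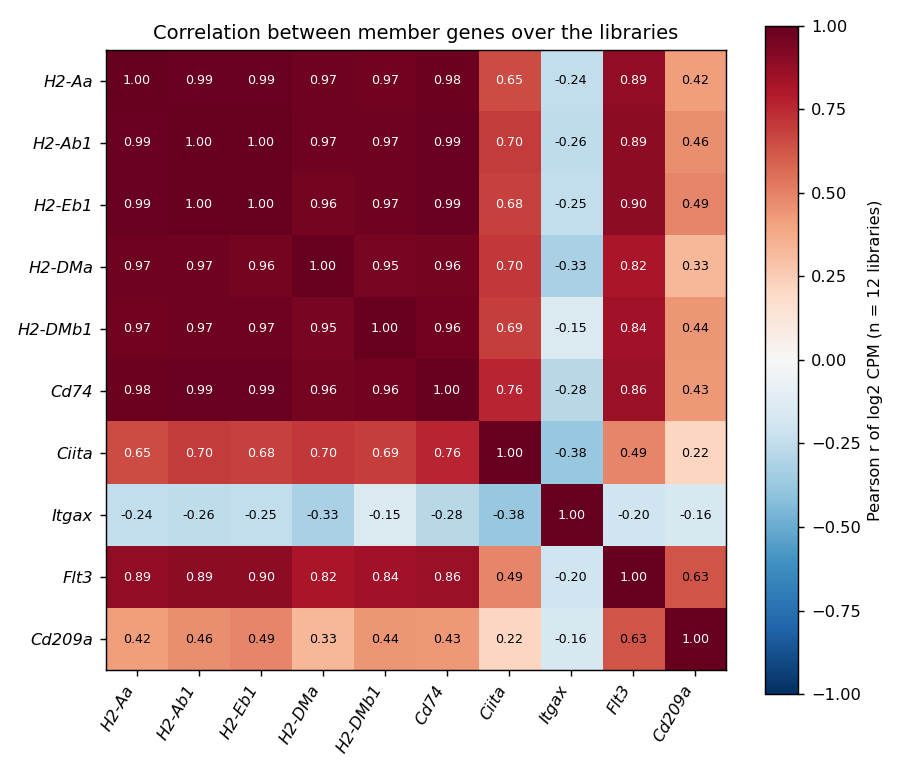
Pearson r of log2 CPM over the 12 libraries for each pair of members, from blue (-1) through white (0) to red (1). The 6 class II and loading genes form a block of 0.95 or more, Flt3 follows at 0.82 to 0.90, and Itgax is negative with each of the other 9 members.

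Flt3 followed the class II block more closely than Ciita did in these values, although the difference between their correlations was not tested. Flt3 had r of 0.818 to 0.897 with the 6 genes, and for H2-Ab1 r was 0.891 (rho 0.888; permutation p = 0.00015, adjusted p = 0.000397 over 45 pairs), 0.873 without the 2 farthest libraries, 0.927 in sham and 0.753 in AVF-CKD. Ciita had r of 0.653 to 0.763, and 0.234 to 0.476 without the 2 farthest libraries. For H2-Ab1 and Ciita r was 0.698 (rho 0.727; permutation p = 0.00876, adjusted p = 0.0164), and it fell to 0.357 without the 2 libraries farthest from the median of H2-Ab1. Leaving these out also narrows the range of H2-Ab1, so how far the relation rests on them cannot be told. Within groups r was 0.844 in sham and 0.361 in AVF-CKD. In AVF-CKD 3, where Ciita stood at 27.1 CPM, H2-Ab1 stood at 768 CPM, while in AVF-CKD 6 Ciita was 44.4 and H2-Ab1 608 CPM. The ratio of Ciita to H2-Ab1 ran from 0.0317 in sham 3 to 0.0730 in AVF-CKD 6.

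Itgax and Cd209a stood outside the block. For H2-Ab1 and Itgax r was -0.26 (rho -0.30; permutation p = 0.429, adjusted p = 0.495), with -0.27 in sham and -0.38 in AVF-CKD, and the ratio of the pair ran from 0.0322 in sham 1 to 0.168 in AVF-CKD 3. For H2-Ab1 and Cd209a r was 0.464 (rho 0.517; permutation p = 0.132, adjusted p = 0.192), with 0.548 in sham and 0.231 in AVF-CKD. The closest partner of Cd209a among the members was Flt3, with r of 0.632 (rho 0.594; permutation p = 0.0257, adjusted p = 0.0413), which fell to 0.314 without the 2 libraries farthest from the median of Flt3. Here too the range is narrowed, so how far the relation rests on them cannot be told. In all, 28 of 45 pairs had an adjusted permutation p of r below 0.05, and these were the 15 pairs within the block, the 12 pairs of Ciita or Flt3 with it, and Flt3 with Cd209a. By rank 26 pairs were called, without H2-Aa with Ciita (adjusted permutation p of rho 0.0977) and Flt3 with Cd209a (0.0761). The count was 22 without sham 6, 23 without sham 2 and 15 in the AVF-CKD libraries alone.

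**Figure D5:**
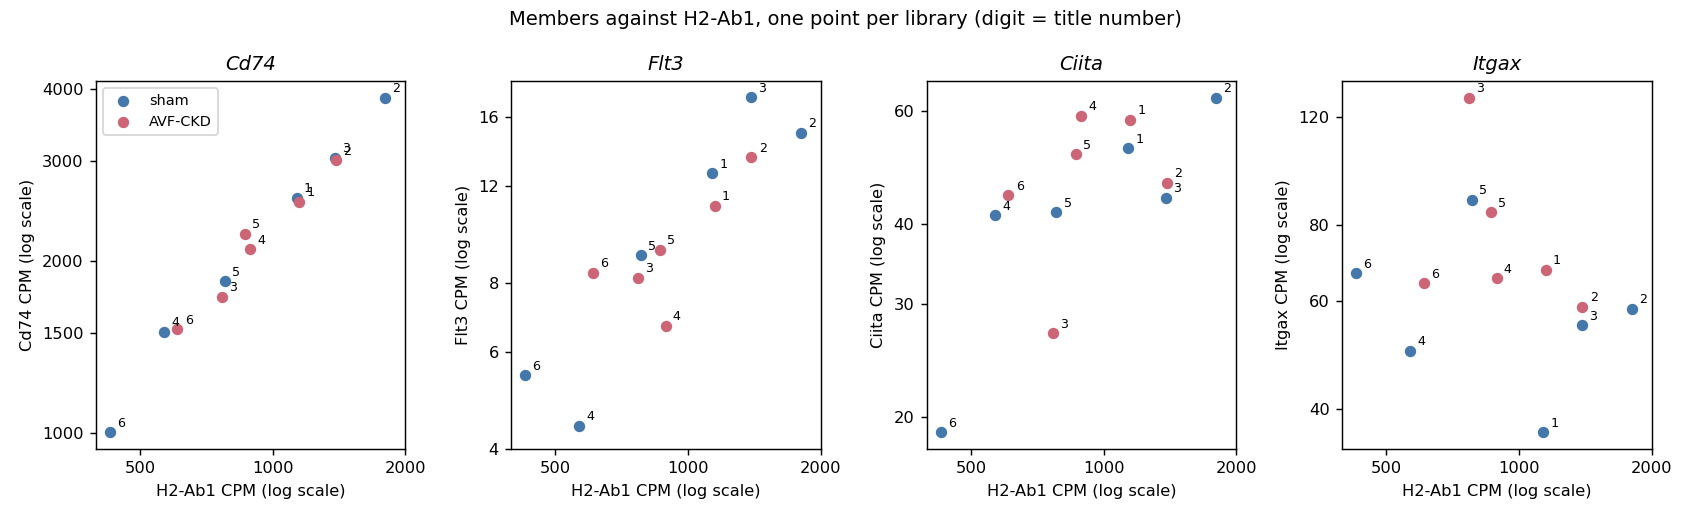
CPM of Cd74, Flt3, Ciita and Itgax against that of H2-Ab1, both axes on a log scale, 1 point per library with its title number (sham blue, AVF-CKD red). Cd74 lies on a line with H2-Ab1 from 427 to 1803 CPM, Flt3 follows more loosely, Ciita less so, and Itgax does not rise with it.

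Among 13748 other genes with a mean of 1 CPM or more, the 10 most like the block by mean r with its 6 genes over the 12 libraries were Mir5107 (0.981), Plbd1 (0.953), C920025E04Rik (0.946), Cxcr3 (0.935), Tmem176a (0.928), Rnase6 (0.925), Fgd2 (0.923), H2-M3 (0.921), H2-Q7 (0.914) and H2-Q6 (0.911). These are descriptions of genes picked as the highest. Mir5107 lies within the Cd74 gene, where it covers 0.715% of the exonic bases, so its counts cannot be told apart from those of Cd74. H2-M3, H2-Q6 and H2-Q7 belong to class I, and H2-Q6 and H2-Q7 are close paralogs whose reads may be shared. Plbd1, a phospholipase-like gene of myeloid cells, ran from 53.0 CPM in sham 6 to 172 CPM in AVF-CKD 2. Cxcr3, a chemokine receptor of activated T cells, ran from 2.76 CPM in sham 6 to 10.3 CPM in AVF-CKD 2. Rnase6, a ribonuclease of phagocytes, ran from 4.17 CPM in sham 6 to 14.1 CPM in sham 2.

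H2-Ab1 was also set against the most abundant gene of each of the lists around the pathway, 24 genes chosen by that rule after the data had been seen. For 3 of them the adjusted p of r was below 0.05. Naaa, a lysosomal enzyme high in type 1 dendritic cells, had r of 0.895 (rho 0.916; permutation p = 0.00015, adjusted p = 0.0036 over 24 genes), and 0.828 without the 2 farthest libraries. H2-DMb2, which shares transcript sequence with H2-DMb1, had r of 0.845 (rho 0.853; adjusted permutation p = 0.00564), and B2m, the light chain of class I, 0.834 (rho 0.804; adjusted permutation p = 0.00784). Within groups r of these 2 genes was 0.842 and 0.899 in sham and 0.908 and 0.792 in AVF-CKD. Lyz2, the lysozyme of macrophages, had r of 0.534 (rho 0.503; adjusted permutation p = 0.229) and Cd79b, a B cell receptor chain, 0.541 (rho 0.643; adjusted permutation p = 0.225). Tcf4, a transcription factor of plasmacytoid dendritic cells and many others, passed by rank alone, with r of -0.69 (rho -0.74; adjusted permutation p = 0.079 for r and 0.0466 for rho). Col3a1, a collagen of fibroblasts, gave r of -0.12 (rho -0.11; adjusted permutation p = 0.743).

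Other genes of the pathway and the cell markers passed no edgeR test at an adjusted p of 0.05 either. At an unadjusted p below 0.05 4 of 6 fat genes passed, 3 of 8 growth genes and 3 of 10 type 2 markers. Next came 2 of 6 smooth muscle, 2 of 8 endothelial and 2 of 15 macrophage markers. Some lists share genes, and Ccr2 is counted in both the type 2 and the macrophage list. The other lists had 1 or 0 each, and over all genes tested 9.34% passed. In each of the 24 lists, edgeR passed 0 genes at an adjusted p of 0.05 and no tested gene had groups that did not overlap. Over all genes tested these shares were 0% and 0.638%. Of the other class II genes of the region, 1 of 4 was positive and 3 were negative (median log2 fold change -0.20). H2-Eb2, a further beta chain gene, ran from 1.25 CPM in sham 6 to 25.3 CPM in sham 3, with 1.51 to 5.40 CPM in AVF-CKD, and its log2 fold change was -1.17 ± 0.64 (SE; edgeR adjusted p = 0.589). H2-Oa and H2-Ob, the chains of the DM inhibitor DO, gave -0.24 and -0.17 on the log2 scale. Of 10 processing genes 9 were positive (median 0.12), among them March1, the ligase that removes class II from the surface, at 0.31 ± 0.16 (SE; edgeR adjusted p = 0.566), and Ctsb, a lysosomal protease, at 0.11. Of the promoter factors 2 of 7 were positive (median -0.04), and their summed level lay between 235 and 254 CPM in all 12 libraries. Within that list Nfyb, a subunit of NF-Y, gave -0.15 and Creb1, a factor that binds beside it, 0.08 on the log2 scale.

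The 14 genes around interferon gamma summed to the highest level in sham 4, at 2293 CPM, where the 6 class II and loading genes summed to 3740 CPM. Next came AVF-CKD 1 with 2074 CPM (class II sum 6881 CPM) and sham 2 with 2013 CPM (class II sum 10786 CPM). Sham 6 was lowest in both, at 1029 and 2621 CPM. No relation between these sums was tested. In the list 10 of 14 genes were negative (median -0.30), and Cxcl10, a chemokine induced by interferons, had 17.7 to 119 CPM in sham and 11.8 to 35.4 CPM in AVF-CKD (log2 fold change -1.24 ± 0.48, SE; edgeR adjusted p = 0.487). Ifng itself was at most 1.69 CPM in any library, in sham 4. All 14 of 14 class I genes were negative (median -0.11), where 50.9% of all genes tested were. In title numbers 1 to 3 all 14 were negative (median -0.20), while in 4 to 6 7 of 14 were positive (median 0.01). Genes of 1 list can move together, so these signs are a description. Pdia3, a chaperone of loading, was at -0.23 ± 0.08 (SE; edgeR adjusted p = 0.461) and B2m at -0.26 ± 0.23 (SE; edgeR adjusted p = 0.758). Of 9 costimulation genes 6 were positive (median 0.10), with Cd80 at 0.37 and Cd83 at -0.45 on the log2 scale.

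The genes of dendritic cell growth were mostly positive, 6 of 8 with a median log2 fold change of 0.14. Csf2ra, the alpha chain of the GM-CSF receptor, had 58.8 to 91.3 CPM in sham and 73.3 to 119 CPM in AVF-CKD (0.44 ± 0.14, SE; edgeR adjusted p = 0.414), and Csf2rb, its shared chain, gave 0.36 ± 0.14 (SE; edgeR adjusted p = 0.496). Flt3l, the ligand of Flt3, gave -0.05. Type 1 dendritic cell markers were 3 of 9 positive (median -0.18), with Wdfy4, needed for cross-presentation, at 0.30. Type 2 and monocyte-derived markers were 8 of 10 positive (median 0.23), with Sirpa, an inhibitory receptor of myeloid cells, at 0.32 ± 0.13 (SE; edgeR adjusted p = 0.496) and Ccr2, the receptor that draws monocytes from blood, at 0.43. Markers shared by conventional dendritic cells were 3 of 6 positive (median -0.02), and those of mature migratory ones 5 of 9 (median 0.01). Plasmacytoid markers were 7 of 7 negative (median -0.45), with the smallest p for Klk1, a kallikrein also made in glands, with 101 CPM in sham 6 and 3.8 CPM or less elsewhere. The median of this list was -0.95 in title numbers 1 to 3 and 0.0010 in 4 to 6, where 4 of 7 were positive.

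Other cells that can carry class II, and tissues carried along, were followed by their markers. Their part in the members' values was not tested. Macrophage and monocyte markers were 10 of 15 positive (median 0.20), and their summed level ran from 6554 to 13387 CPM in sham and from 7301 to 13022 CPM in AVF-CKD. Mertk, a receptor for dying cells, had the smallest p of that list, at 0.48 ± 0.11 (SE; edgeR adjusted p = 0.390, DESeq2 adjusted p = 0.0246). B cell markers were low, summing to 6.00 to 22.1 CPM in sham and 8.51 to 24.6 CPM in AVF-CKD, with 2 of 9 positive (median -0.25). T cell markers were 3 of 10 positive (median -0.19), and their sums were 78.8 to 216 CPM in sham and 119 to 188 CPM in AVF-CKD. Cd207, the defining gene of Langerhans cells, was at most 0.285 CPM. Its list also holds epithelial genes, and the 3 tested were Krt8, Epcam and Krt18. All 3 were negative (median -1.34, with sham 6 far above the rest). Their median was 1.37 in title numbers 1 to 3 and -3.41 in 4 to 6. Lymph node stroma genes were 2 of 4 positive (median -0.01), and the high endothelial gene Glycam1 averaged 0.185 CPM. Vessel markers were present, the endothelial Pecam1 with a CPM of 297 to 518 and the smooth muscle Acta2 with 473 to 1144 over the 12 libraries. Endothelial markers were 1 of 8 positive (median -0.16), smooth muscle markers 1 of 6 (median -0.35) and fibroblast markers 4 of 6 (median 0.07). Fat markers were 6 of 6 negative (median -1.05), with sums of 580 to 2465 CPM in sham and 434 to 938 CPM in AVF-CKD and the highest in sham 6, which was also the library lowest in class II. DESeq2 passed Retn (adjusted p = 0.0224) and Adipoq (adjusted p = 0.0373), hormones of fat cells, which gave -1.53 and -1.18 on the log2 scale. The lowest edgeR adjusted p of the fat list was 0.390, and DESeq2 passed 0.62% of all genes to which it gave an adjusted p. Skeletal muscle markers were 6 of 6 negative (median -0.23) and mast cell markers 5 of 5 (median -0.30), and neutrophil markers were 3 of 4 positive (median 0.16). In title numbers 1 to 3 and 4 to 6 the median was 1.06 and -1.77 for skeletal muscle, and 0.96 and -0.70 for neutrophils. Like the members, fibroblast markers were 6 of 6 negative in the first set (median -0.35) and 6 of 6 positive in the second (0.40). T cell markers were 9 of 10 negative (-0.34), then 8 of 10 positive (0.06). The other class II genes of the region were 4 of 4 negative (-0.39), then 4 of 4 positive (0.24). Fat markers had a negative median in both sets (-1.01 and -1.11). Without sham 6 the log2 fold change was -0.35 for H2-Aa and -0.23 for Cd74.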

How the data were processed

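RNA of 12 vein samples was made into libraries with a TruSeq kit, per the labels' protocols. Per the submitters' processing notes, TopHat2 2.1.0, featureCounts and edgeR were used with GRCm38. The strand setting is not given in the sources used here, so overlapping genes cannot be told apart. The deposited counts are whole reads per gene, 38.7 to 60.1 M per library (M, 1000000 counts). The deposited RPKM values were not used for tests. There were 0 columns belonging to other series.

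Genes with low counts were removed by filterByExpr, libraries were TMM-scaled, and group was the only term of a quasi-likelihood fit (edgeR 4.0.16, R 4.3.3). P-values were adjusted by Benjamini-Hochberg over all genes tested, with a threshold of 0.05. DESeq2 1.42.0 and limma 3.58.1 were alternatives. Common dispersion was 0.0588 (biological variation of 24.2%). Correlations used log2 CPM with a prior count of 2, 100000 permutations (two-sided) and adjustment over 45 pairs. All pairs of libraries differed by more than sampling noise (66 pairs, chi-square over degrees of freedom between 47.6 and 211). The scripts were tested on simulated data.

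The members and the 28 gene lists were chosen with earlier results of these data known. All members are named. For other lists the text names the most abundant gene and up to 3 with the smallest edgeR p, and for likeness the 10 genes with the highest mean r. Dbp, H2-Ea-ps, Ifng, Flt3l, Cd207 and Glycam1 were named after their values were seen. Promoter sequences are RefSeq's, gene positions those of GENCODE M21.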

Additional observations from a re-analysis of the deposited data

Results flagged for a closer look

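Of 70 groups of 6 libraries examined for a library apart from the others, 7 were found by Dixon's test, where chance gives about 1 in 20. Of 20 such groups of members there was 1. Itgax stood at 129.1 CPM in AVF-CKD 3, against 58.7 to 83.8 CPM in the other AVF-CKD libraries. The other findings were sums over marker lists. The class II promoter factors summed to 254.2 CPM in sham 5, against 236.6 to 242.5 CPM in the other sham libraries. The Langerhans and epithelial genes summed to 39.9 CPM in sham 6, against at most 5.75 CPM in the other sham libraries, and to 9.85 CPM in AVF-CKD 2, against at most 3.22 CPM in the other AVF-CKD libraries. The B cell genes summed to 6.00 CPM in sham 4, against 16.4 to 22.1 CPM. Fat genes summed to 2465 CPM in sham 6, against 580 to 1171 CPM. Skeletal muscle genes summed to 10613 CPM in sham 4, against 396 to 4182 CPM.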

How the results depend on the processing

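No member passed the threshold under any alternative (adjusted p 0.384 to 1.000). The sign was less stable: it changed for 17 of 110 member values under 11 settings and for 15 of 120 with a library left out. Over all genes DESeq2 called 67 higher and 39 lower, and leaving out a library gave 0 to 1 higher (1 without AVF-CKD 3). With limma voom the log2 fold change was 0.045 for H2-Ab1, 0.0080 for H2-Eb1, 0.020 for H2-DMa and 0.036 for Cd74. With the low and high title numbers as a second term it was 0.013 for H2-Ab1 and 0.023 for Cd74. In numbers 1 to 3 alone it was -0.13 for H2-DMb1 and -0.28 for Ciita. In numbers 4 to 6 alone it was 0.26 for H2-Aa, 0.41 for H2-Ab1, 0.38 for H2-Eb1, 0.17 for H2-DMa, 0.43 for Cd74, 0.36 for Flt3 and 0.18 for Cd209a. With a library left out the log2 fold change ran from -0.35 to 0.047 for H2-Aa, -0.26 to 0.14 for H2-Ab1, -0.30 to 0.11 for H2-Eb1, -0.20 to 0.087 for H2-DMa, -0.10 to 0.15 for H2-DMb1, -0.23 to 0.13 for Cd74, -0.023 to 0.27 for Ciita and -0.33 to 0.024 for Flt3. The extremes came mostly without sham 6 (lowest) and sham 2 (highest). Itgax stayed positive, at 0.20 to 0.55, and Cd209a negative, at -0.43 to -0.14. The median r of class II pairs was 0.992 in sham alone, and 15 pairs of members were called in AVF-CKD alone. The causes were not tested.

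Over all genes the deviations of same-numbered libraries correlated at -0.11 to 0.28, above 0.1 for 3 of 6 numbers, and both libraries of number 3 correlated best with each other. The numbers were therefore not treated as pairs. With the title number as a replicate block 0 genes were called, and the log2 fold change became 0.019 for H2-Ab1 and 0.029 for Cd74. No other member changed sign under it. The SE fell from 0.33 to 0.18 for H2-Aa, from 0.33 to 0.19 for H2-Eb1 and from 0.23 to 0.12 for H2-DMb1. For Ciita the SE went from 0.25 to 0.23, and among the members it rose only for Cd209a, from 0.30 to 0.35. The reason for these changes was not tested.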
